A study of Mus musculus with 9 samples.

Results

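The mouse miRNA families miR-297, miR-466, miR-467 and miR-669 are a large repetitive group, most of which is encoded within the gene Sfmbt2. All entries of the count table whose name is one of these 4 family names followed by a letter were taken as members, which gave 46 of the 1164 miRNA entries. The rule used names only and no measured value, but it was set with earlier results of these data known. By family there were 3 entries of miR-297, 17 of miR-466, 8 of miR-467 and 18 of miR-669.

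The counts come from small RNA of small extracellular vesicles (smEVs) released by kidney medullary (KM) cells, immortalised cell lines from the mouse kidney. Sequencing covered 9 smEV libraries, 3 from Bbs4-/- cells, 3 from Bbs6-/- cells and 3 from the wild-type (WT) control line, all kept without serum for 24 h before the vesicles were collected. Bbs4 is a subunit of the BBSome, a complex that moves proteins into and out of the primary cilium, and Bbs6 belongs to the chaperonin complex that assembles it. As far as the labels tell, each genotype is one cell line, so the effect of a genotype and that of a cell line cannot be told apart, and the p-values below measure the spread between smEV preparations of one line.

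Sfmbt2 encodes a Polycomb group protein. One of its introns carries a tandem array of miRNA genes that is found in rodents, and in mouse extraembryonic tissue the locus is imprinted and read from the paternal copy. miRNAs of this array are best known from the placenta, whose growth needs them. A miRNA finds its targets mainly through the seed, bases 2 to 8 of the mature strand, so members with different seeds are not interchangeable even where the rest of their sequence is alike.

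Mature sequences of 8 of the 46 entries could be taken from RefSeq (GRCm38.p6), each encoded outside Sfmbt2. They are shown because miR-466i, the most abundant member, is among them, and because the other 7 show which sequence features it shares with relatives that had no count. Sequences run 5′ to 3′ and the seed is in capitals. The first 4 are built on CA repeats and the last 4 on UG repeats.
miR-466i-3p: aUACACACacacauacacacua
miR-466q: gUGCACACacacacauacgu
miR-467f: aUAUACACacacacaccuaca
miR-467g: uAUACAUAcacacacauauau
miR-466k: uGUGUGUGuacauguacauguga
miR-466j: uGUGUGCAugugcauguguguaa
miR-669n: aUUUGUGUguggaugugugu
miR-467h: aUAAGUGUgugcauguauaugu
The 8 seeds all differed. The seed of miR-466i-3p was held by 1 mature sequence among the 1679 in the reference table, miR-466i-3p itself, but the members encoded in Sfmbt2 were not among the sequences searched. miR-466i-3p shared a run of 14 bases with miR-466q, 13 with miR-467f and 11 with miR-467g, and between 2 and 4 with the UG-repeat members. CACACA was found in 12 (0.715%) of the 1679 mature sequences and in 4 of these 8, read on the mature strand. An unbroken CA run of at least 9 bases was found in the 4 CA-repeat members shown and in no mature sequence of another family in that table. The other 7 entries had no count in any library, so of the 4 members shown with CA runs of 9 to 12 bases miR-466i was the one that had counts. The deposited entries do not name the arm of the hairpin, so it is not known whether the 3p strand shown here or the other arm gave the counts of miR-466i.

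In the GENCODE vM21 annotation of GRCm38, Sfmbt2 lies on the plus strand at chr2:10370510-10595253. It holds 71 precursor genes named for these families, all in introns and on the strand of Sfmbt2, and 70 of them could be matched to an entry, 5 of miR-297, 22 of miR-466, 14 of miR-467 and 29 of miR-669. The genes begin between 96.2 and 147.6 kb after the start of Sfmbt2. The array is built from a repeated unit in which a miR-467, a miR-466 and a miR-669 gene follow each other, an order that occurs 11 times. The 11 genes of miR-467a and miR-467b mark this unit and start a median of 2.45 kb apart. Many entries stand for several copies, up to 11 genes for miR-669a, 10 for miR-467a and 8 for miR-466b, and a count of such an entry cannot be assigned to one copy.

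Of the 46 entries, 22 (47.8%) had at least 1 count in the 9 libraries, against 469 (40.3%) of the 1164 entries of the table. The 24 others were at 0 in every library. Detected entries were mostly at a low level, with a median total of 22 counts over all libraries against 28 for all detected entries, and miR-466i was the only member with a count in every library, against 177 entries of the table. For comparison, 4 of the 17 entries of an X-linked miRNA cluster known from testis had a count, with 29 counts in all, and 5 of 31 entries of the imprinted Dlk1-Dio3 cluster had one, with 20 counts in all.

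Within Sfmbt2, genes of entries with counts were spread over the whole array, while those of entries at 0 were missing from its middle. Between 107.4 and 138.5 kb lay 34 miRNA genes, of which 33 matched 10 entries, and each of these entries had a count. Some of these entries hold identical or near-identical counts, as given below, so they are not independent. In addition, miR-466b, miR-467a and miR-669a have further genes outside this stretch. The genes of entries at 0 lay towards the ends, among genes of entries with counts, 10 on the upstream side and 8 on the downstream side of this stretch. The stretch was read from the counts, and since entries with many copies add many genes to it, no test was made of it.

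**Figure D1:**
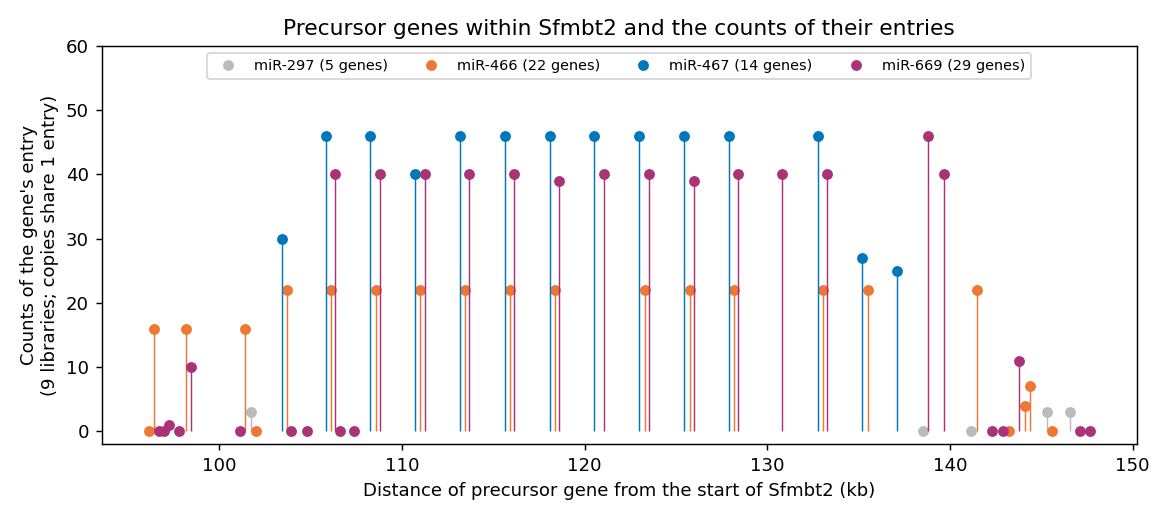
Precursor genes of the 4 families within Sfmbt2, with the distance of each gene from the start of Sfmbt2 in kb on the horizontal axis and the counts of its entry, summed over 9 libraries, on the vertical axis. Each point is 1 of the 70 matched genes, coloured by family, copies share the count of their entry, and between 107.4 and 138.5 kb no point is at 0.

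Several entries were not independent of each other. miR-466a, miR-466b, miR-466c, miR-466e and miR-466p had identical counts in all 9 libraries and were counted as 1, so the 22 detected entries hold 18 distinct patterns with 744 counts in all. miR-669a and miR-669p had equal counts in 6 of the 7 libraries in which either had one and differed by 1 count in the other, and miR-467a and miR-467b were equal in 3 of 6. Near-identical members can be given the same reads, so levels summed over members may count a read more than once, and which of such members was loaded is uncertain. Of the 744 counts, miR-466 held 426 (57.3%), miR-467 168 (22.6%), miR-669 147 (19.8%) and miR-297 3 (0.403%).

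The total count per library ran from 64118 to 130905 in WT smEVs, from 176935 to 457163 in Bbs4-/- and from 192654 to 423784 in Bbs6-/-, so the WT libraries were all shallower than the mutant ones. Levels are given as CPM, counts relative to the size of the library, scaled by edgeR's TMM method. An observed count of 0 is taken to allow a true level of up to 3 counts, which stood for 6.99 to 36.5 CPM. Low members are therefore bounded least well in WT. Spread within a line exceeded sampling noise (chi-square 12.4 to 110 per degree of freedom). The epithelial markers (miR-200a, miR-200b, miR-200c, miR-141 and miR-429) all had counts, though not in every line. They summed to 9990 to 13303 CPM in WT, 16968 to 18928 in Bbs4-/- and 16551 to 21413 in Bbs6-/- libraries. miR-141 had a mean of 0 CPM in WT, 106 in Bbs4-/- and 126 in Bbs6-/-. miR-200c had a mean of 12.1 CPM in WT, 3307 in Bbs4-/- and 2748 in Bbs6-/-. The renal list (miR-192, miR-194 and miR-30a entries, miR-194-1 at 0) reached 26060 to 32705 CPM in WT, 44371 to 47289 in Bbs4-/- and 26362 to 34277 in Bbs6-/-. Nearly all of this was miR-30a, with means of 28639.5 CPM in WT, 45967.7 in Bbs4-/- and 29227.2 in Bbs6-/-. The means of miR-192 were 76.1, 79.4 and 108 CPM in the same order, and those of miR-194 were 64.2, 129 and 165. The erythroid markers miR-144 and miR-451a summed to at most 43.9 CPM in Bbs6-/-, 44.3 in Bbs4-/- and 85.1 in WT libraries. The leukocyte list (3 entries) stayed between 0 and 22.4 CPM, and of the mesenchymal list (5 entries, miR-145a and miR-214 at 0) the sum was 80.1 to 162 CPM in WT, 123 to 273 in Bbs4-/- and 20.04 to 71.8 in Bbs6-/-. The part of other cell types in the levels below was not tested.

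miR-466i led the members in abundance, with 355 counts over all libraries and rank 124 in the table. Its gene lies at chr13:17747473-17747593 on the plus strand, in an intron of Cdk13 and on the opposite strand to it, and its 3p strand (shown above) at chr13:17747552-17747573. Bbs4-/- smEVs held 27, 51 and 117 counts of miR-466i in replicates 1, 2 and 3, or 171, 228 and 272 CPM. Bbs6-/- smEVs held 2, 22 and 56 counts in replicates 2, 3 and 4, or 10.98, 75.2 and 160 CPM. WT smEVs held 22, 30 and 28 counts in replicates 1, 3 and 4, or 267, 267 and 181 CPM. The Bbs4-/- and WT libraries overlapped, while each Bbs6-/- library lay below every library of the other lines. The gap was narrow, with 160 CPM in the highest Bbs6-/- library and 171 CPM, from 27 counts, in the lowest Bbs4-/- library. The share of all entries ordered in this way was not determined, so the order is only a description. Bbs6-/- replicate 2, at 10.98 CPM, stood apart over the whole table, as given below. The means were 239 ± 49.8 CPM in WT, 224 ± 51.0 in Bbs4-/- and 82.2 ± 74.9 in Bbs6-/- (SD, n = 3 each).

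The miR-467 family had 5 detected entries, all with genes within Sfmbt2. miR-467a had 0, 2 and 5 counts in Bbs4-/-, 0, 16 and 11 in Bbs6-/- and 0, 4 and 8 in WT libraries, in the order of replicates given for miR-466i. Its level was 29.1 ± 26.5 CPM in WT, 6.87 ± 6.10 in Bbs4-/- and 28.7 ± 27.4 in Bbs6-/-. miR-467b followed it with 0, 0 and 3, then 0, 16 and 11, then 0, 2 and 8 counts. Each of these groups had at least 1 library at 0, so the groups overlapped.

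miR-467e (chr2:10505721-10505807) was without a count in 1 line. It had 0 counts in all 3 Bbs4-/- libraries, 0, 15 and 6 in Bbs6-/- and 0, 2 and 4 in WT. With 3 counts per library as the limit of a 0, the mean limit in Bbs4-/- was 13.1 CPM. This was 1.74-fold below the mean of 22.8 ± 26.1 CPM in Bbs6-/- and 1.11-fold below that of 14.6 ± 13.2 CPM in WT. Neither ratio allows for the spread of the Bbs6-/- or WT mean, so neither is a lower limit of the fold. In the WT libraries the same 3 counts stood for 19.4 to 36.5 CPM, above the WT mean. The 0 in 1 library of each other line means that the groups were not separated.

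miR-467c (chr2:10473931-10474027) had 0, 2 and 9 counts in Bbs4-/-, 3, 0 and 4 in Bbs6-/- and 0, 8 and 4 in WT. miR-467d (chr2:10507630-10507714) had 0, 8 and 5 counts in Bbs4-/-, 0, 2 and 6 in Bbs6-/- and 0, 4 and 0 in WT. Neither showed an order of the lines: miR-467c was at 32.4 ± 36.1 CPM in WT and 9.97 ± 10.5 and 9.30 ± 8.44 in Bbs4-/- and Bbs6-/-, and miR-467d at 11.9 ± 20.6, 15.8 ± 18.3 and 8.00 ± 8.65.

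Among the 18 miR-669 entries, 6 had a count. miR-669a had 1, 1 and 11 counts in Bbs4-/-, 0, 4 and 11 in Bbs6-/- and 5, 7 and 0 in WT, or 12.1 ± 11.7, 15.1 ± 15.8 and 41.0 ± 35.5 CPM. miR-669p differed from it only in 1 Bbs4-/- library, which had 0. miR-669c (chr2:10509296-10509404) had 3, 0 and 14 counts in Bbs4-/-, 0, 7 and 16 in Bbs6-/- and 4, 1 and 1 in WT. In WT miR-669a was high in the 2 shallower libraries and at 0 in the deepest, and the lines overlapped for all 3 of these entries.

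In the miR-466 family the entries of the Sfmbt2 array were low. miR-466d (chr2:10511967-10512062) had 0, 0 and 3 counts in Bbs4-/-, 0, 12 and 4 in Bbs6-/- and 0, 1 and 2 in WT. The 5 identical entries had 1, 0 and 9 counts in Bbs4-/-, 0, 8 and 1 in Bbs6-/- and 0, 3 and 0 in WT. Both were at 0 in at least 1 library of each line. The other detected members had totals of 16 counts for miR-466f, 11 for miR-669o, 10 for miR-669l, 7 for miR-466h, 4 for miR-466g, 3 for miR-297a and 1 for miR-669b. All 3 counts of miR-297a came from Bbs6-/- replicate 4.

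**Figure D2:**
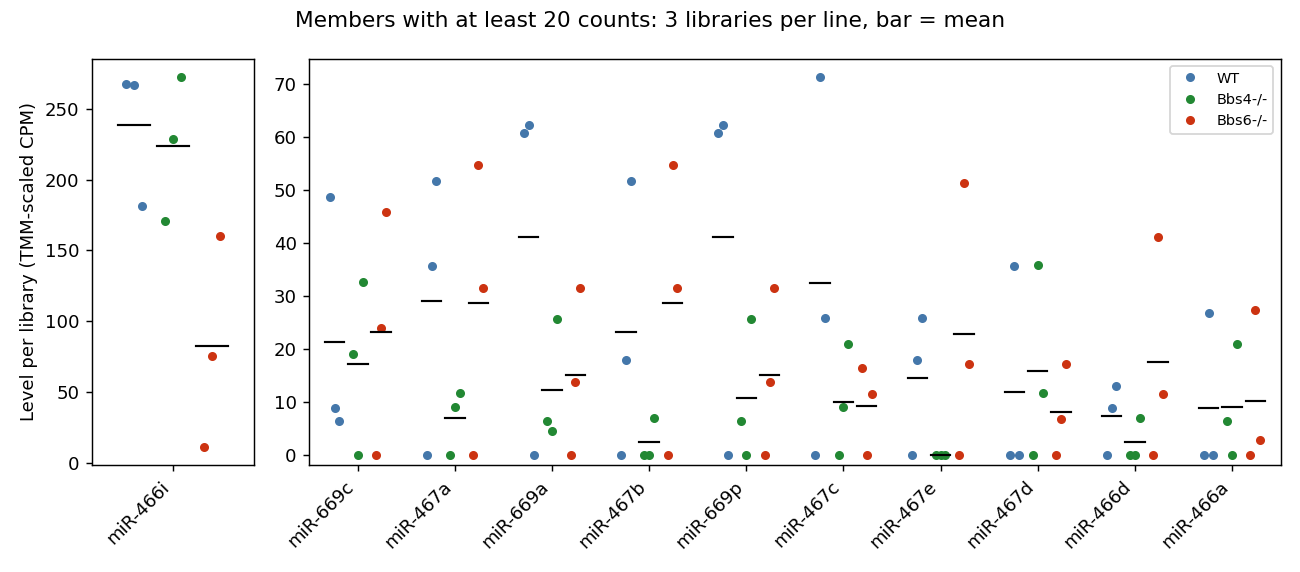
Level of each member with at least 20 counts in TMM-scaled CPM, with 1 point for each of 3 libraries per line, coloured by line, and a bar at the mean (miR-466i on its own scale at the left, miR-466a standing for the 5 identical entries). miR-466i reaches 272 CPM and has a value in all libraries, while every other member shown is at 0 in at least 1 library.

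Summed over all distinct members, the level was 504 ± 138 CPM in WT, 324 ± 114 in Bbs4-/- and 293 ± 227 in Bbs6-/- smEVs (SD, n = 3 each). The WT libraries ran from 375 to 650 CPM, the Bbs4-/- libraries from 215 to 442 and the Bbs6-/- libraries from 32.9 to 455, so the lines overlapped. Scaled by total counts alone, the sums were 443 to 687 CPM in WT, 192.2 to 416 in Bbs4-/- and 31.1 to 375 in Bbs6-/-, and each WT library was above each mutant library. The separation of WT from the mutants thus rested on the scaling.

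Bbs6-/- replicate 2 stood apart, with 6 counts of all members together among 192654. That was 0.00311% of its counts (exact 95% binomial interval 0.00114% to 0.00678%, counting error only), against 0.0354% (0.0292% to 0.0426%) and 0.0375% (0.0319% to 0.0438%) in the other Bbs6-/- libraries. Without it the Bbs6-/- mean was 422 CPM, or 0.839 of WT in place of 0.581. Its count of detected entries over the whole table, at 269, was within the range of 244 to 309 of the other libraries. Its profile over the whole table still departed from those of Bbs6-/- replicates 3 and 4 (chi-square 86.2 and 110 per degree of freedom). All other pairs of libraries of one line were at 12.4 to 39.8, so this library stood apart beyond the members.

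By family, miR-466 was at 268 ± 68.5 CPM in WT, 241 ± 62.4 in Bbs4-/- and 129 ± 101 in Bbs6-/-. miR-467 was at 111 ± 96.9, 34.99 ± 30.3 and 97.6 ± 76.1 CPM in the same order, and miR-669 at 125 ± 91.6, 47.4 ± 31.6 and 63.6 ± 63.0. The line with the lowest mean was Bbs6-/- for miR-466 and Bbs4-/- for miR-467 and miR-669, and with TMM scaling the libraries of all lines overlapped for each family. Scaled by total counts, the miR-466 sums of Bbs6-/- (15.6 to 175 CPM) lay below those of WT (229 to 359). Without miR-466i the family was at 46.3 ± 38.5 CPM in Bbs6-/-, 29.1 ± 28.7 in WT and 17.3 ± 15.8 in Bbs4-/-, with overlapping libraries. The mean of Bbs6-/- was then no longer the lowest. Bbs6-/- replicate 2 lowered it as well: with miR-466i kept but that library left out, the miR-466 mean was 185 CPM, or 0.689 of WT in place of 0.480. miR-297 was at 0 in WT and Bbs4-/- libraries and at 2.86 ± 4.96 CPM in Bbs6-/-.

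Without miR-466i, the summed level was 265 ± 103 CPM in WT, 99.8 ± 64.1 in Bbs4-/- and 210 ± 164 in Bbs6-/-. The Bbs4-/- libraries, at 44.3 to 170 CPM, lay below the WT libraries, at 193.9 to 383, and did so under total counts too, with ratios of the means of 0.376 and 0.315. The Bbs6-/- libraries, at 22.0 to 314 CPM, overlapped WT. The 36 entries whose genes lie only within Sfmbt2 were at 262 ± 97.6 CPM in WT, 93.8 ± 63.6 in Bbs4-/- and 199.3 ± 159 in Bbs6-/-, and 19 of them had a count, in 16 distinct patterns. The 8 entries encoded only elsewhere had counts of miR-466i alone. These sums were looked at after the values of the members were known and carry no test. The sum without miR-466i and that of the Sfmbt2 entries hold miR-467a and miR-467b, and miR-669a and miR-669p, as separate entries. Reads shared by such a pair can thus enter more than once. How far the gap between 170 CPM in Bbs4-/- and 193.9 CPM in WT depends on this was not tested.

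The mix of members differed between the lines. miR-466i made up 79.4%, 72.9% and 61.6% of the member counts in the Bbs4-/- libraries, 55.0%, 41.1% and 48.3% in the WT libraries, and 33.3%, 19.3% and 35.2% in the Bbs6-/- libraries. The 3 ranges did not overlap. This share does not depend on the scaling of the libraries, but the value of 33.3% rests on 2 of 6 counts (exact 95% binomial interval 4.33% to 77.7%). Single intervals of different lines overlapped as well, such as 54.3% to 68.5% for Bbs4-/- replicate 3 and 38.5% to 70.7% for WT replicate 1. The share was chosen after its values were seen and was not tested.

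**Figure D3:**
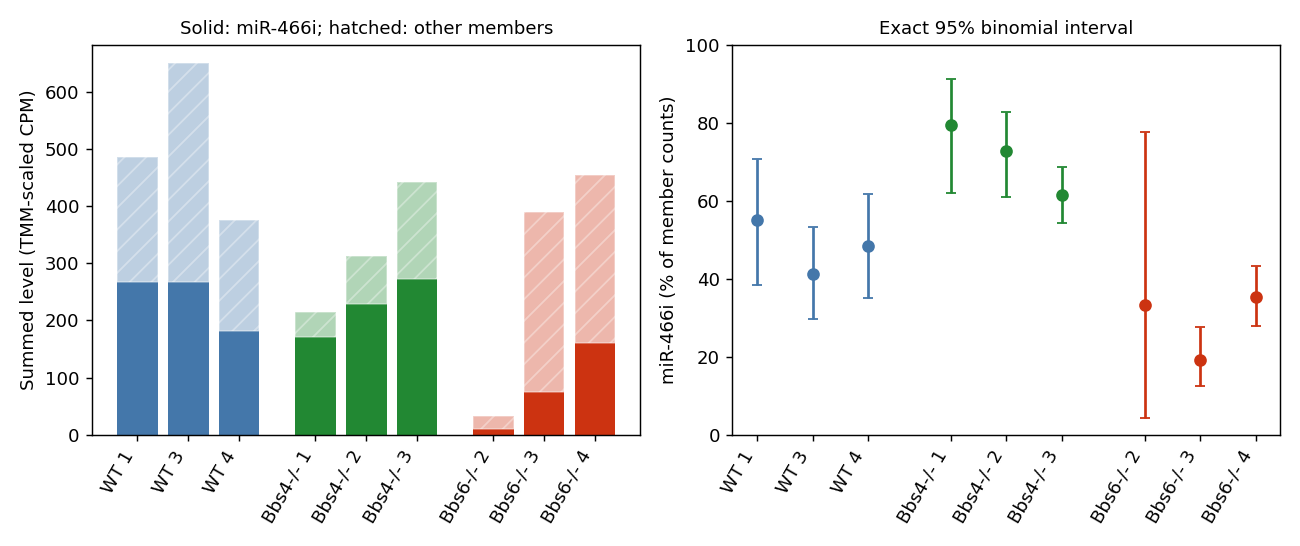
Left, summed level of the distinct members in each of the 9 libraries in TMM-scaled CPM, with miR-466i as the solid part of each bar and the other members hatched. Right, miR-466i as a percentage of the member counts of each library, with its exact 95% binomial interval, at 61.6% to 79.4% in Bbs4-/-, 41.1% to 55.0% in WT and 19.3% to 35.2% in Bbs6-/- libraries.

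The number of distinct members seen differed between libraries as well. It was 6, 9 and 11 in Bbs4-/-, 3, 13 and 16 in Bbs6-/- and 6, 14 and 8 in WT libraries. At the depth of the shallowest library, 64118 counts, 6 to 11.8 would be expected in WT, 3.19 to 7.14 in Bbs4-/- and 1.59 to 10.2 in Bbs6-/-. The same expectation over the whole table was 231 to 258 entries in all 9 libraries.

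Each line was then compared with the others by edgeR's quasi-likelihood test over the whole table, to ask which members were differentially loaded. An entry was called where its p, adjusted by the Benjamini-Hochberg method, was under 0.1 and its log2 fold change was 2 or more up or down. The comparisons share libraries, so their values are given side by side and not combined. Entries that passed the filter on low counts are only part of the members.

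In Bbs4-/- against WT, 17 member entries (13 distinct) of 308 entries could be tested, and 0 were called, while 6.17% of all entries tested were called. DESeq2 called 0 members and 6.17% of all entries, and 8 of the members received an adjusted p from it. An adjusted p under 0.1 alone was reached in edgeR by 0 members and 15.3% of all entries. At an unadjusted p under 0.05 there was 1 member, miR-467e, against 26% of all entries tested. miR-466i had a log2 fold change of -0.18 (SE 0.38, 95% interval -0.98 to 0.63, edgeR adjusted p = 0.810), and its interval was the only one of the 17 that lay within 2 log2 units of 0. The other named members had wide intervals: miR-467a was at -2.05 (SE 1.37, edgeR adjusted p = 0.372) and miR-467b at -2.92 (SE 1.62, edgeR adjusted p = 0.285). The fit for miR-467e, at 0 in Bbs4-/-, gave an edgeR adjusted p of 0.183. Of the 13 distinct members tested, 10 had a log2 fold change below 0 and 3 above, with a median of -1.62. Over all entries tested the median was -0.02, with 50.6% below 0 and 49.4% above, and none of the 13 members passed the test. Counted as 17 entries, with the 5 identical ones separate, 10 were below 0 and the median was -0.24, so the median depended on how the copies were counted. The distinct members still hold near-identical entries such as miR-669a and miR-669p, so these directions are not independent, here and in the comparisons below.

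In Bbs6-/- against WT, 19 member entries (15 distinct) of 298 could be tested and 0 were called by edgeR, against 4.03% of all entries tested. DESeq2 called 0 of them and 4.36% of all entries, and gave an adjusted p to 1 member. In edgeR an adjusted p under 0.1 alone was reached by 0 members and 15.1% of all entries. At an unadjusted p under 0.05 there were 0 members and 22.1% of all entries tested. miR-466i had a log2 fold change of -1.44 (SE 0.73, 95% interval -3.09 to 0.21, edgeR adjusted p = 0.280), and without Bbs6-/- replicate 2 it was -0.95 (edgeR adjusted p = 0.203). Of the distinct members, 7 were below 0 and 8 above, with a median of 0.03. Counted as 19 entries, 7 were below 0 and 12 above, with a median of 0.30. Over all entries tested the median was -0.01, with 50.3% below 0 and 49.7% above. Among the named members, miR-467c was at -1.75 (edgeR adjusted p = 0.549) and miR-467e at 0.65 (edgeR adjusted p = 0.832). All 19 intervals reached beyond 2 log2 units, so for each member tested a change of the size of the threshold lay within its interval.

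In Bbs4-/- against Bbs6-/-, 18 member entries (14 distinct) of 309 could be tested and 0 were called by edgeR, against 3.88% of all entries tested. DESeq2 called 0 of them and 4.21% of all entries, and gave an adjusted p to 8 members. By adjusted p alone, 0 members and 8.09% of all entries passed in edgeR. At an unadjusted p under 0.05 there were 2 members, miR-466i and miR-467e, against 16.2% of all entries tested. miR-466i was higher in Bbs4-/-, by 1.40 on the log2 scale (SE 0.61, 95% interval 0.10 to 2.71, edgeR adjusted p = 0.260), and miR-467e, at 0 in Bbs4-/-, had an edgeR adjusted p of 0.194. miR-466i and miR-467e thus lay on opposite sides, as did miR-467b with a log2 fold change of -3.04 (SE 1.54, edgeR adjusted p = 0.367). Of the distinct members, 10 were below 0 and 4 above, with a median of -0.42. Counted as 18 entries, 14 were below 0 and 4 above, with a median of -0.17. Over all entries tested the median was 0.04, with 48.2% below 0 and 51.8% above.

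Each of these 2 members was called once a library was left out. Without Bbs6-/- replicate 2, miR-467e passed both thresholds (edgeR adjusted p = 0.0605), and without Bbs6-/- replicate 4, miR-466i did (log2 fold change 2.30, edgeR adjusted p = 0.0862). The number of members called in this comparison was 1 in both cases and 0 in every other fit that left out 1 library. The library left out was in turn the Bbs6-/- library at 0 for miR-467e and the Bbs6-/- library highest in miR-466i, at 160 CPM. Both calls thus rest on leaving out the Bbs6-/- library nearest to Bbs4-/-. Since miR-467e was at 0 in all Bbs4-/- libraries, its fitted fold is no measure of size. What share of all entries was called in these fits was not determined, so the calls cannot be set against it.

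**Figure D4:**
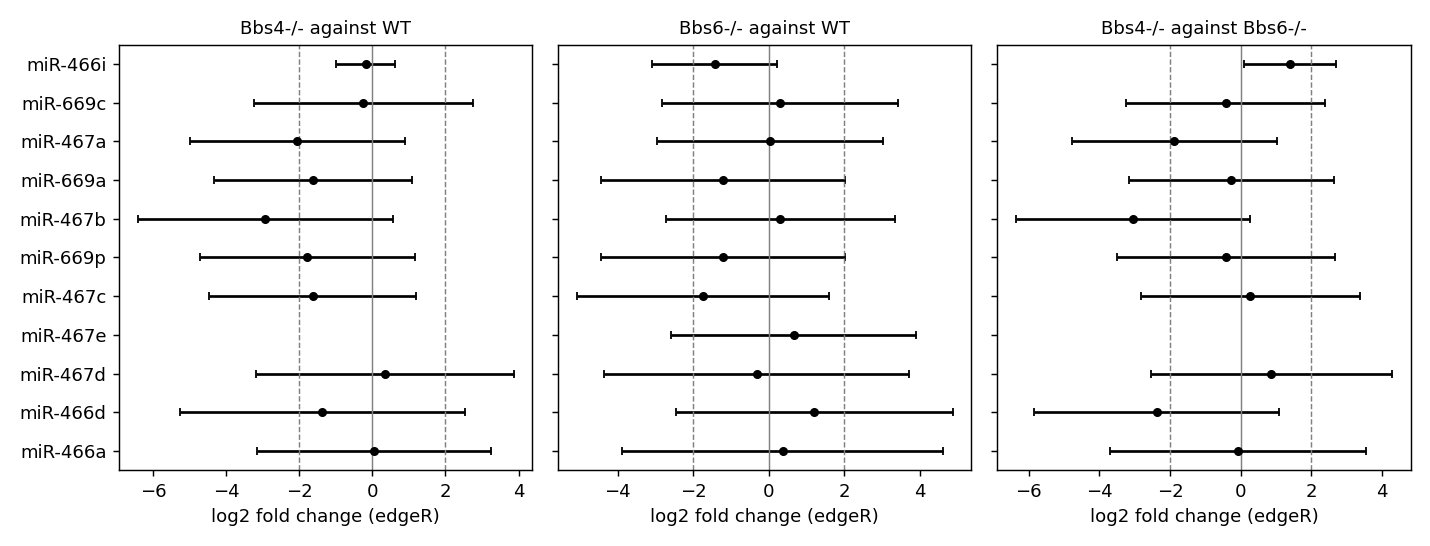
Log2 fold change of each named member in the 3 comparisons, with points for the estimate, bars for the 95% interval and dashed lines at the threshold of 2 in either direction. miR-467e is left out where Bbs4-/- libraries, all at 0, enter, and in Bbs4-/- against WT the interval of miR-466i (-0.98 to 0.63) is the only one within the dashed lines.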

How the data were processed

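Small RNA of 9 smEV libraries was analysed, 3 per genotype. The authors deposited raw counts per mouse miRNA, which were not normalized. Per their methods, adapters were trimmed, reads alike in sequence and molecular identifier were collapsed, and miRDeep2 counted reads per miRNA, with the largest count kept for a miRNA with several entries. The submitters' processing notes also name cutadapt 1.9, Bowtie 0.12.8, HTSeq 0.9.0 and GRCm38. The miRBase release is not given in the sources used here. A count of a member with several gene copies is therefore not a sum over copies. Columns of Bbs6-/- and WT smEVs carry replicate numbers that differ from the labels and were used as replicates of their genotype. Columns left out: 0.

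Members and lists were chosen with earlier results of these data known. Entries with identical counts in all 9 libraries were counted once in sums. Counts were fitted in R 4.3.3 with edgeR 4.0.16 (TMM, quasi-likelihood, two-sided, Benjamini-Hochberg over all entries tested), on the 6 libraries of a comparison with WT (total of at least 6 counts) and on all 9 for the mutants against each other (at least 9). Named members had at least 20 counts in all. Alternatives were DESeq2 1.42.0, its size factors in edgeR, total counts, no filter, filterByExpr, other sets of libraries, robust estimation, merged entries, a replicate block, and each library left out. The steps were tested on simulated data. Positions are from GENCODE vM21 (GRCm38), matched by name, and 1 entry, miR-466a, could not be matched.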

Additional observations from a re-analysis of the deposited data

How the results depend on the processing

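The number of members called was 0 in each comparison with WT under every alternative run (DESeq2, its size factors, total counts, no filter, filterByExpr, all 9 libraries, robust estimation, merged entries, no limit on the fold, a replicate block, and each library left out). In Bbs4-/- against Bbs6-/- it ranged from 0 to 1 when a library was left out (1 without Bbs6-/- replicate 2, 1 without Bbs6-/- replicate 4). For the fits with a library left out or with the block, the share of all entries called was not determined. The replicate numbers of the columns did not pair the libraries, since the correlation of deviations from the group means was -0.13 to 0.37, and with them as a block 1 member was called in this comparison (miR-466i, log2 fold change 2.04, edgeR adjusted p = 0.0242). In Bbs6-/- against WT, miR-466i had an edgeR adjusted p of 0.0860 with no filter and 0.0369 with the block, at log2 fold changes of -1.45 and -1.62, short of the threshold. The block also turned log2 fold changes near 0 in Bbs4-/- against WT to 0.41 for miR-466i and 0.64 for miR-669c, and miR-467a in Bbs6-/- against WT to -0.30. With total counts, miR-466a turned to -0.086 in Bbs4-/- and -0.073 in Bbs6-/- against WT, and in Bbs6-/- against WT miR-467a turned to -0.43, miR-467b to -0.15 and miR-669c to -0.20. miR-467a also turned to -0.011 with DESeq2 size factors, -0.016 with no filter and -0.056 with all 9 libraries. The cause of these turns was not tested.

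Leaving out 1 library moved these log2 fold changes across 0. In Bbs4-/- against WT the ranges were -0.59 to 4.14 for miR-466a, -0.33 to 0.071 for miR-466i, -0.72 to 4.81 for miR-467d and -1.18 to 1.18 for miR-669c. In Bbs6-/- against WT they were -0.45 to 4.25 for miR-466a, -0.34 to 1.73 for miR-466d, -0.88 to 0.62 for miR-467a, -0.61 to 1.54 for miR-467b, -1.34 to 3.95 for miR-467d, -0.74 to 1.21 for miR-467e and -0.52 to 1.68 for miR-669c. The upper ends for miR-466a and miR-467d in both comparisons with WT were fitted without WT replicate 3, which leaves WT at 0, so they are no measure of a fold. In Bbs4-/- against Bbs6-/- the ranges were -1.87 to 2.08 for miR-466a, -0.87 to 0.78 for miR-467c, -0.33 to 1.91 for miR-467d, -1.64 to 0.76 for miR-669a, -1.60 to 0.46 for miR-669c and -2.43 to 0.60 for miR-669p.

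Without miR-466i the sum of all members was 265 CPM in WT and 99.8 in Bbs4-/-, and the miR-466 sum 29.1 and 17.3, against 46.3 in Bbs6-/-, which then had the highest miR-466 mean in place of the lowest. With entries not merged, Bbs4-/- replicate 1 had 10 members with a count. Requiring 3 counts left 2 in Bbs4-/- replicate 1, 3 in replicate 2, 1 in Bbs6-/- replicate 2 and 7 in WT replicate 3. At the depth of the smallest library 3.19, 4.83 and 7.14 members were expected in the Bbs4-/- libraries, 1.59 in Bbs6-/- replicate 2 and 10.2 in replicate 4. Every detected member other than miR-466i had at most 46 counts over the 9 libraries, which with the shallow WT libraries limits what these comparisons resolve.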
